A study of Mus musculus with 12 samples.

Results

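The p53 network and growth arrest genes are 36 genes, listed by symbol, among the 22298 genes of a count table from 4T1 cells. They comprise the p53 family, its ubiquitin ligase regulators and classical p53 targets in cell cycle arrest, cell death, stress metabolism and DNA repair. 4T1 is a mammary carcinoma line of BALB/c mice, which serves in work on triple-negative tumours. By their labels the cells carried 1 of 3 guide RNAs, Cop1 sgRNA1, Cop1 sgRNA2 or, as the control, one for the neutral locus Rosa26. They were given IFNγ at 20 ng/ml for 24 hours or vehicle. The groups were sgRNA1, sgRNA2 and Rosa26 cells with IFNγ and sgRNA1, sgRNA2 and Rosa26 cells in vehicle, with 2 libraries in each of the 6 groups. Whether the guide populations were pools or clones, whether replicates were separate cultures, and at which bases the guides cut is not stated in the labels. The p-values below therefore reflect spread among libraries, and this spread may be technical.

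The transcription factor p53 is held low by the ubiquitin ligase MDM2 and is freed by DNA damage and other stress, after which it switches on genes that stop the cell cycle, start apoptosis, slow growth and repair DNA. MDM2 is itself a p53 target, which closes a feedback loop. COP1 is a ubiquitin ligase for which p53 is a described substrate, as are c-Jun and C/EBP and ETS family factors. 4T1 cells are reported to be deficient in p53, and many genes of the network also answer other signals: Gadd45b, Btg2, Plk2 and Plk3, for example, are also induced by growth factors and cytokines.

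Totals per library lay between 19378070 and 32609717 counts, and the 36 genes held 0.158% to 0.209% of them. Cop1, the targeted gene, had 60.7 and 60.2 CPM with sgRNA1 and 32.3 and 33.6 CPM with sgRNA2 under IFNγ, against 80.4 and 83.3 CPM in Rosa26 cells, and 59.1 and 63.1 CPM with sgRNA1 and 34.5 and 34.7 CPM with sgRNA2 in vehicle, against 89.7 and 98.2 CPM. CPM are counts scaled by library totals after TMM correction. Averaged over the guides Cop1 changed by -0.88 ± 0.05 on the log2 scale with IFNγ and by -1.03 ± 0.05 in vehicle (± gives the standard error of log2 changes throughout), and mRNA does not measure the protein left. With the 2 libraries of each population summed, so that the guides alone give the spread, these decreases no longer passed (adjusted p = 0.395 and 0.342). Summed levels of 7 epithelial markers were 2619 to 3404 CPM over the libraries (1 marker, Krt5, at 0 in all libraries), those of 7 leukocyte markers 0.299 to 1.33 CPM (3 markers at 0 in all libraries), of 4 fibroblast markers 15.2 to 23.6 CPM and of 3 endothelial markers 0.24 to 0.799 CPM. Nearly all of the fibroblast sum came from Pdgfra, as group means of Col3a1, Dcn and Lum were at most 0.191 CPM.

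Across the network, most growth arrest genes were lower in Cop1-loss cells with IFNγ, 8 of 9 tested, against 20.7% of all genes. This count was 8 with any 1 IFNγ library left out and by DESeq2, and 6 with the libraries of each population summed. In vehicle 6 of the 9 were called lower, against 19.2% of all genes, a count that depended on single libraries: it was 3 without Rosa26 vehicle replicate 1, 4 without Rosa26 vehicle replicate 2, 2 with summed populations and 3 for sgRNA2 alone. Plk2 and Gadd45a were among those called in each of these fits. For 6 of the 9 the IFNγ response was more negative in Cop1-loss cells, against 2.36% of all genes. That count was 5 or 6 with 1 library left out, 4 by DESeq2, which gave 3 of the 9 no adjusted p, and 0 with summed populations, where 6 had an unadjusted p under 0.05. The more negative response was not particular to the arrest genes. By edgeR, 10 of 13 immediate early genes outside the network had such a call (76.9%), and 2 of 34 other p53 targets did (5.88%). A gene was called at an adjusted p under 0.05 over 11904 genes tested (edgeR's quasi-likelihood test, Benjamini-Hochberg), and 30 of the 36 genes passed the low-count filter. With IFNγ, Cop1 loss (the mean of both guides against Rosa26) had 2 of the 30 called higher and 19 called lower, against 19.8% and 20.7% of all genes tested. In vehicle 5 were called higher and 13 lower, against 16.6% and 19.2% of all genes. IFNγ raised 13 and lowered 5 of the 30 in Cop1-loss cells, where the shares of all genes were 18.1% and 16.1%. In Rosa26 cells it raised 13 and lowered 2, where the shares were 16.6% and 16.2%. The median log2 change of the 30 was -0.26 and -0.13 for Cop1 loss with IFNγ and in vehicle, and 0.07 and 0.25 for IFNγ in Cop1-loss and Rosa26 cells, while the median of all genes lay between -0.01 and 0.00 in each. The members were chosen with earlier results of these data known, and counts in 4T1 cells as a population cannot tell fewer expressing cells from less RNA per cell.

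**Figure D1:**
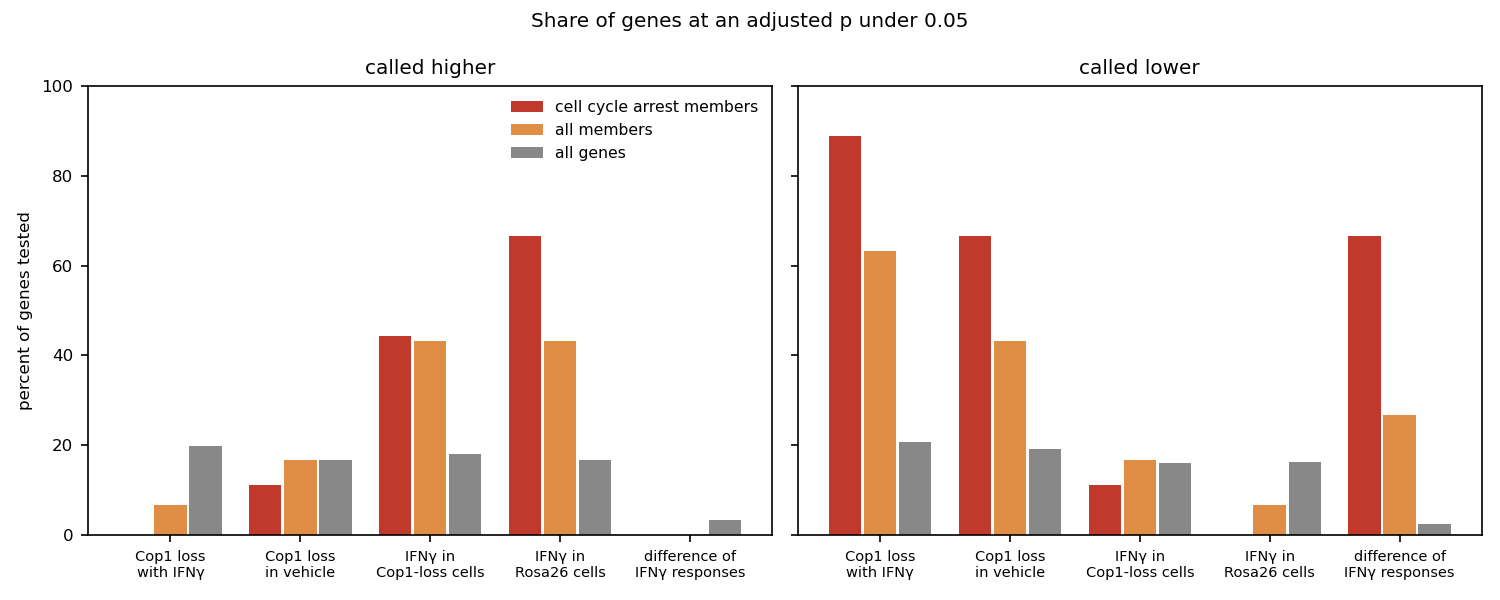
Percent of tested genes called higher (left) and lower (right) at an adjusted p under 0.05 in each comparison, for the cell cycle arrest genes (red, 9 tested), all members (orange, 30 tested) and all 11904 genes tested (grey). The red bar for genes called lower by Cop1 loss with IFNγ stands at 88.9%, against 20.7% of all genes, and 0 arrest genes were called higher there (edgeR; also 0 by DESeq2 and at an unadjusted p under 0.05).

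Per length, the most abundant of the 36 were Btg1 at a mean of 77.9 CPM per kb of exon and Perp at 67.8 CPM per kb, followed by Ei24 at 38.9 and Gadd45b at 36.8 CPM per kb. The lowest of the 30 tested were Trp53inp1 at 0.997 and Btg2 at 1.38 CPM per kb. The 6 genes that failed the filter were at or near 0. Cdkn2a, whose locus encodes the CDK inhibitor INK4a and the MDM2 inhibitor ARF, had no count in any library. Pmaip1, the BH3-only protein NOXA, had 1 count in all libraries together and Trp73, a p53 relative, had 2 counts, both in 1 library. Trp63, the other p53 relative, and Gdf15, a secreted stress cytokine, had 13 counts each over the 12 libraries, and Eda2r, a death receptor relative of the TNF receptor family, had 17.

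Trp53 mRNA (chromosome 11, 69580359 to 69591873, plus strand of GRCm38) was present in all libraries and was lower in Cop1-loss cells, mainly with IFNγ. It had 43.5 and 43.9 CPM with sgRNA1 and 47.9 and 47.0 CPM with sgRNA2 under IFNγ, against 62.3 and 64.4 CPM in Rosa26 cells under IFNγ. In vehicle Trp53 had 42.1 and 36.5 CPM with sgRNA1 and 43.6 and 41.4 CPM with sgRNA2, against 46.8 and 46.0 CPM in Rosa26 cells. The Rosa26 libraries with IFNγ thus held the highest levels of the 12, and the other 10 lay between 36.5 and 47.9 CPM. The log2 change for Cop1 loss was -0.48 ± 0.05 with IFNγ (adjusted p = 1.63e-09) and -0.18 ± 0.06 in vehicle (adjusted p = 0.0121). In vehicle the decrease did not pass after leaving out Rosa26 vehicle replicate 1 (adjusted p = 0.105) or 2 (0.0548) or sgRNA1 vehicle replicate 2 (0.0748) or with summed populations (0.243), while the call with IFNγ kept its side under all 13 alternatives run for it, with a highest adjusted p of 0.00824. IFNγ raised Trp53 by 0.15 ± 0.05 in Cop1-loss cells and by 0.45 ± 0.06 in Rosa26 cells (adjusted p = 0.00942 and 2.03e-07). The first of these calls ended without sgRNA1 vehicle replicate 2 (adjusted p = 0.0961) and with summed populations (0.228). RNA counts do not measure p53 protein, and the nature of the reported p53 deficiency of 4T1 was not tested.

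Mdm2 (chromosome 10, 117688875 to 117710758, minus strand) and Cdkn1a (chromosome 17, 29090976 to 29100727, plus strand), which encodes the CDK inhibitor p21, are the classical readouts of p53 activity, and both changed in opposite directions with and without IFNγ. Their promoters are shown because each holds at least 1 match to the p53 half-site consensus, in capitals, in the window from 250 bases before to 50 bases after a transcription start (RefSeq, GRCm38.p6, printed on the gene's strand). For Cdkn1a the window is that of the upstream of its 2 starts in the table.
Cdkn1a (chr17:29090729-29091028, plus strand): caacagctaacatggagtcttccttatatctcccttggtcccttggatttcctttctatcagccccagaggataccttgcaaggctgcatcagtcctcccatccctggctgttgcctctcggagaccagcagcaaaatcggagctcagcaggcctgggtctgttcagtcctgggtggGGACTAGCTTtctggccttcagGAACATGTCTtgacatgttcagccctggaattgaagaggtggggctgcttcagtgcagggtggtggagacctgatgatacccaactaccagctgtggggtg
Mdm2 (chr10:117710709-117711008, minus strand): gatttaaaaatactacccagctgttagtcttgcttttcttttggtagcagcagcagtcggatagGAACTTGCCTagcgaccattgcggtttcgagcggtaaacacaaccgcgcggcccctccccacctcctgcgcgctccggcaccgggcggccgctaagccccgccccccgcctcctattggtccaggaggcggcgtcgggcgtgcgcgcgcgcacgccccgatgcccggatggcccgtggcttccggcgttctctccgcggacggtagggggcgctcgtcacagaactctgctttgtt
The half-sites of Cdkn1a begin 73 and 51 bases before the start, and that of Mdm2 begins 186 bases before it. A half-site was found in 12 of the 39 promoters that the table holds for 28 of the members (30.8%), and in 8.36% of all 32851 promoters, searched on both strands with overlapping matches counted. These 12 belong to 11 genes, among them Trp53 itself, with a match that begins 75 bases before its start. A match describes these letters and is no evidence that a factor binds there.

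Cdkn1a had 39.0 and 37.6 CPM with sgRNA1 and 40.5 and 38.3 CPM with sgRNA2 under IFNγ, against 45.7 and 47.0 CPM in Rosa26 cells under IFNγ. In vehicle Cdkn1a had 36.3 and 33.6 CPM with sgRNA1 and 30.7 and 37.0 CPM with sgRNA2, against 27.7 and 24.7 CPM in Rosa26 cells. The Cop1-loss libraries thus lay below the Rosa26 libraries with IFNγ and above them in vehicle, without overlap in either. Cop1 loss lowered Cdkn1a, with a log2 change of -0.25 ± 0.06 with IFNγ (adjusted p = 0.00136) and raised it by 0.40 ± 0.07 in vehicle (adjusted p = 1.63e-05). Only the first of these calls ended under an alternative, with summed populations (adjusted p = 0.0673). IFNγ raised Cdkn1a by 0.17 ± 0.05 in Cop1-loss cells, to a mean of 38.3 CPM with sgRNA1 and 39.4 CPM with sgRNA2, and by 0.82 ± 0.08 in Rosa26 cells, to a mean of 46.4 CPM. The response of Cop1-loss cells passed at an adjusted p of 0.0113 but not without sgRNA1 vehicle replicate 2 (0.0548), sgRNA2 vehicle replicate 1 (0.14) or sgRNA2 IFNγ replicate 1 (0.0613), nor with summed populations (0.145).

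Mdm2 had 100 and 99.8 CPM with sgRNA1 and 102 and 105 CPM with sgRNA2 under IFNγ, against 115 and 115 CPM in Rosa26 cells under IFNγ. In vehicle Mdm2 had 91.9 and 94.0 CPM with sgRNA1 and 91.0 and 92.9 CPM with sgRNA2, against 84.1 and 86.2 CPM in Rosa26 cells. As for Cdkn1a, the guide libraries lay below Rosa26 with IFNγ and above it in vehicle. The log2 changes were small, -0.17 ± 0.04 with IFNγ (adjusted p = 0.000256) and 0.12 ± 0.04 in vehicle (adjusted p = 0.0175). Both calls ended with summed populations (adjusted p = 0.107 and 0.302), and the vehicle call also without Rosa26 vehicle replicate 1 (0.154). IFNγ raised Mdm2 by 0.14 ± 0.03 in Cop1-loss cells, a call that ended with summed populations (adjusted p = 0.129), and by 0.43 ± 0.05 in Rosa26 cells.

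Of the other regulators, Mdm4, a p53-binding relative of MDM2, was not called for Cop1 loss in either treatment, with log2 changes of 0.12 ± 0.05 with IFNγ (adjusted p = 0.0502) and 0.06 ± 0.05 in vehicle (adjusted p = 0.364). IFNγ raised it by 0.15 ± 0.04 in Cop1-loss cells (adjusted p = 0.0016), a call that ended with summed populations (0.226), and its change in Rosa26 cells was 0.10 ± 0.06 (adjusted p = 0.187). Rchy1, a ubiquitin ligase of p53 also named Pirh2, had 37.7 and 41.4 CPM with sgRNA1 and 37.9 and 40.4 CPM with sgRNA2 under IFNγ, against 40.6 and 41.8 CPM in Rosa26 cells under IFNγ. In vehicle Rchy1 had 32.2 and 29.8 CPM with sgRNA1 and 30.9 and 32.4 CPM with sgRNA2, against 27.5 and 28.5 CPM in Rosa26 cells. The groups overlapped with IFNγ and did not in vehicle, where Rchy1 rose by 0.17 ± 0.07 (adjusted p = 0.0461). This did not pass under 8 of 13 alternatives: leaving out Rosa26 vehicle replicate 1 (adjusted p = 0.241) or replicate 2 (0.106), without sgRNA1 vehicle replicate 1 (0.156) or sgRNA2 vehicle replicate 2 (0.109), without the low-count filter (0.0528), with the groups compared alone (0.0501), with summed populations (0.234) and by DESeq2 (0.113). IFNγ raised Rchy1 by 0.32 ± 0.05 in Cop1-loss cells and by 0.56 ± 0.07 in Rosa26 cells (adjusted p = 1.81e-06 and 4.78e-08).

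**Figure D2:**
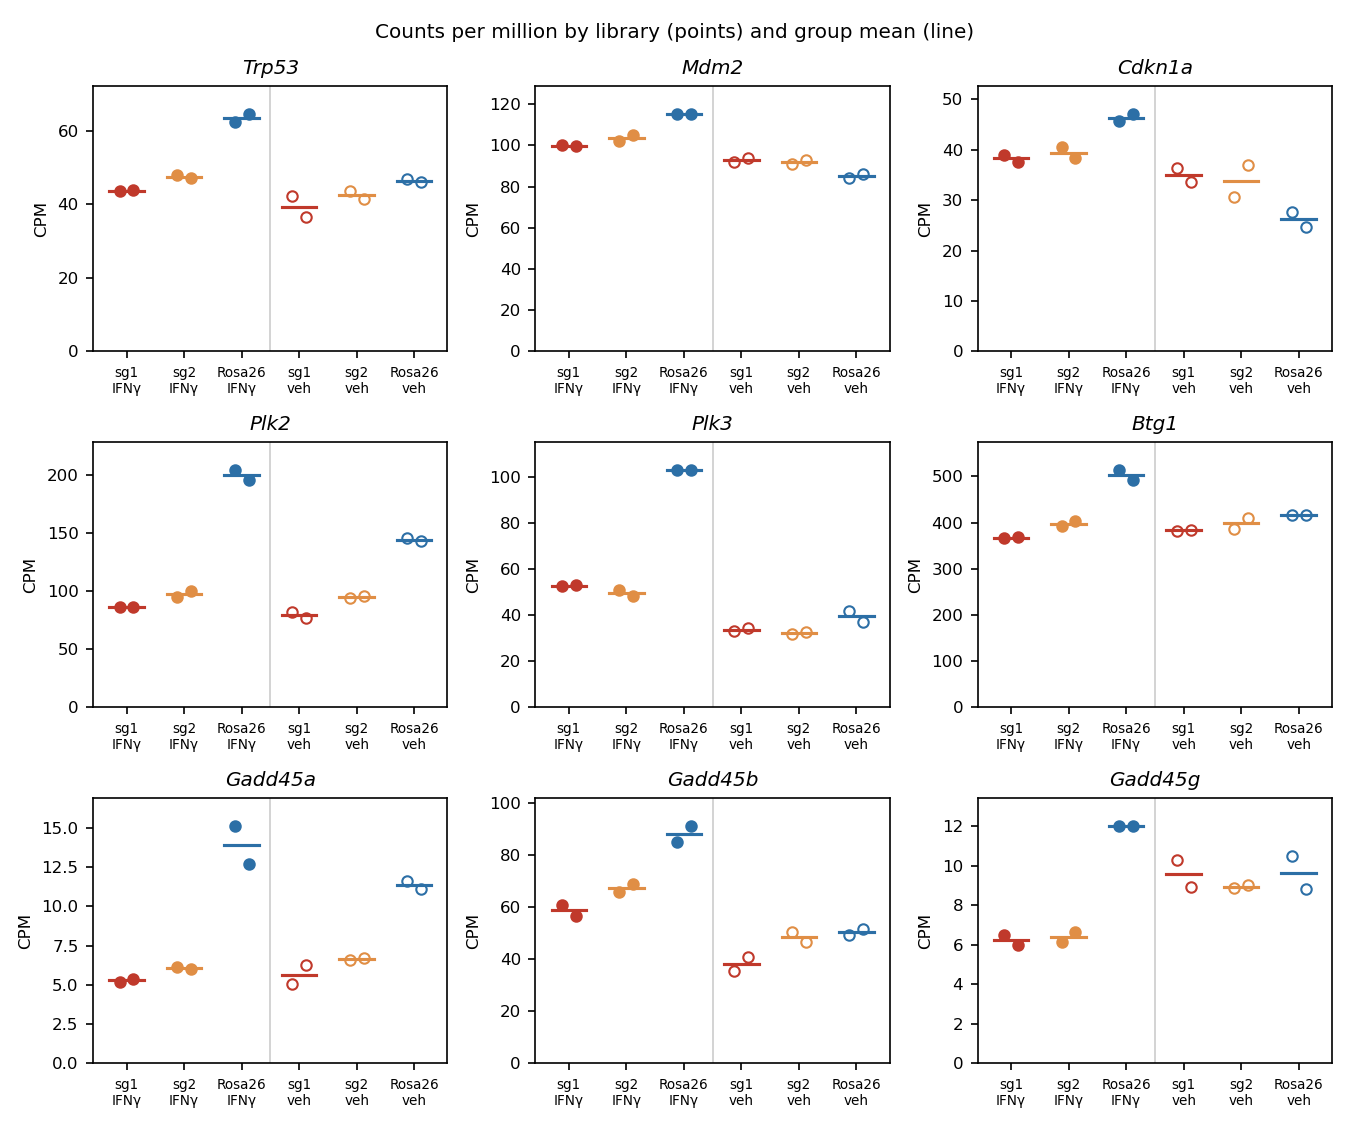
CPM in each library (points, filled with IFNγ and open in vehicle) and group means (lines) for 9 genes of the network, with sgRNA1 (red), sgRNA2 (orange) and Rosa26 cells (blue), IFNγ groups on the left. Rosa26 cells with IFNγ have the highest level in each of the 9 panels, for example 204 and 196 CPM of Plk2, while in vehicle Cdkn1a and Mdm2 are higher with both guides than in Rosa26 cells.

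Among members averaging a log2 CPM of at least 3, the largest decreases in Cop1-loss cells under IFNγ were those of the polo-like kinases Plk2 and Plk3, which act in the stress response and at the G1/S and G2/M boundaries. Plk2 (chromosome 13, 110395046 to 110400844, plus strand) had 86.8 and 86.8 CPM with sgRNA1 and 94.9 and 99.9 CPM with sgRNA2 under IFNγ, against 204 and 196 CPM in Rosa26 cells under IFNγ. In vehicle Plk2 had 82.3 and 77.1 CPM with sgRNA1 and 94.0 and 95.6 CPM with sgRNA2, against 146 and 143 CPM in Rosa26 cells. No Cop1-loss library reached the lowest Rosa26 library in either treatment. Cop1 loss lowered Plk2, with a log2 change of -1.12 ± 0.04 with IFNγ (adjusted p = 1.16e-26) and of -0.73 ± 0.04 in vehicle (adjusted p = 1.21e-19), and both calls held under all alternatives run, with highest adjusted p-values of 0.000815 and 0.00676. IFNγ raised Plk2 by 0.47 ± 0.04 in Rosa26 cells (adjusted p = 1.26e-12). In Cop1-loss cells its log2 change with IFNγ was 0.08 ± 0.03 and was not called (adjusted p = 0.0557).

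Plk3 (chromosome 4, 117128655 to 117133963, minus strand) had 52.7 and 53.2 CPM with sgRNA1 and 51.0 and 48.6 CPM with sgRNA2 under IFNγ, against 103 and 103 CPM in Rosa26 cells under IFNγ. In vehicle Plk3 had 33.3 and 34.3 CPM with sgRNA1 and 32.0 and 32.9 CPM with sgRNA2, against 42.0 and 37.3 CPM in Rosa26 cells. All groups with IFNγ lay above all groups in vehicle, and Rosa26 with IFNγ stood highest. Cop1 loss lowered Plk3, with a log2 change of -1.01 ± 0.05 with IFNγ (adjusted p = 1.41e-20) and of -0.26 ± 0.06 in vehicle (adjusted p = 0.000261). The vehicle call ended without Rosa26 vehicle replicate 1, where the change was -0.17 (adjusted p = 0.0719), and with summed populations (0.074). The IFNγ response was 0.63 ± 0.05 in Cop1-loss cells and 1.38 ± 0.06 in Rosa26 cells (adjusted p = 1.89e-15 and 6.29e-23), and 1.38 was the largest change with IFNγ among members averaging a log2 CPM of at least 3.

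Btg1 and Btg2 encode antiproliferative proteins that recruit the CCR4-NOT deadenylase. Btg1 (chromosome 10, 96617006 to 96622809, plus strand) had 367 and 368 CPM with sgRNA1 and 393 and 403 CPM with sgRNA2 under IFNγ, against 513 and 493 CPM in Rosa26 cells under IFNγ. In vehicle Btg1 had 382 and 385 CPM with sgRNA1 and 387 and 410 CPM with sgRNA2, against 416 and 417 CPM in Rosa26 cells. It fell by 0.40 ± 0.03 in Cop1-loss cells with IFNγ (log2, adjusted p = 2.43e-16) and by 0.09 ± 0.03 in vehicle (adjusted p = 0.00674), the second of which ended without Rosa26 vehicle replicate 1 (0.0552) or replicate 2 (0.0625) and with summed populations (0.443). IFNγ raised Btg1 by 0.27 ± 0.03 in Rosa26 cells, a call that ended with summed populations (adjusted p = 0.0568), and the change in Cop1-loss cells was -0.03 ± 0.02 (adjusted p = 0.251).

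Btg2, at a mean log2 CPM of 1.75, falls below the level set for naming and is described because its values stood out once seen. It had 2.96 and 3.48 CPM with sgRNA1 and 3.84 and 3.94 CPM with sgRNA2 under IFNγ, against 9.90 and 7.43 CPM in Rosa26 cells under IFNγ, with 38 to 232 counts per library over the series. In vehicle Btg2 had 1.66 and 1.93 CPM with sgRNA1 and 1.83 and 2.60 CPM with sgRNA2, against 2.91 and 2.94 CPM in Rosa26 cells. Cop1 loss lowered it, with a log2 change of -1.29 ± 0.17 with IFNγ (adjusted p = 5.17e-08). The vehicle change of -0.56 ± 0.22 (adjusted p = 0.0419) no longer passed without either Rosa26 vehicle replicate (0.147 and 0.156), without sgRNA1 vehicle replicate 1 (0.117) or sgRNA2 vehicle replicate 1 (0.134), with the groups compared alone (0.0743), with summed populations (0.188) or by DESeq2 (0.0931). IFNγ raised Btg2 by 0.83 ± 0.18 in Cop1-loss cells and by 1.57 ± 0.21 in Rosa26 cells.

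Among the promoters searched for 28 members, those of Plk2 and Btg2 alone hold the cAMP response element TGACGTCA. CREB and ATF factors and Jun-ATF pairs can bind this site. The 2 promoters are shown for that reason with the element in capitals (GRCm38.p6, the gene's strand, 250 bases before to 50 after the start).
Plk2 (chr13:110394794-110395093, plus strand): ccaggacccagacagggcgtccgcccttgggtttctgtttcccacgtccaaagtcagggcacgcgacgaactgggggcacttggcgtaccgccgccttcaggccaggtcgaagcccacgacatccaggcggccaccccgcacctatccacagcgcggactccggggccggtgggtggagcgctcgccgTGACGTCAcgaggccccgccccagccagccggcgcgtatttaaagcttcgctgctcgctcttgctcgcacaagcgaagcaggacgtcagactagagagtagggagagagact
Btg2 (chr1:134079106-134079405, minus strand): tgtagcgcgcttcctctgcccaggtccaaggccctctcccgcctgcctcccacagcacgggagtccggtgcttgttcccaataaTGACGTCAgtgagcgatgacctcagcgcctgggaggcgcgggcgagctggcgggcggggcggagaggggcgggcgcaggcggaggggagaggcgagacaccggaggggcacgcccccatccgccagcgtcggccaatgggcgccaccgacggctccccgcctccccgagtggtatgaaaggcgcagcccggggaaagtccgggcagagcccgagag
The element begins 62 bases before the start of Plk2 and 166 bases before that of Btg2. It occurs in 2 of the 39 promoters of members (5.13%) and in 1.79% of all 32851 promoters of this length, counted on both strands. The AP-1 site TGANTCA was found in 1 of the 39 promoters (2.56%), that of Mdm4, and in 7.81% of all promoters. The interferon-gamma activated site TTCNNNGAA was found in 1 of the 39, that of Polk, and in 8.3% of all, and the composite CEBP-ATF element TGATGNAA in 2 of the 39, those of Gadd45g and Polk, and in 3.97% of all. These counts are descriptions of letters in short windows, and the choice of motifs was made after the genes' values were known.

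The GADD45 proteins are small stress sensors that bind PCNA, CDK1 and the kinase MTK1, and the transcripts of all 3 were lower in Cop1-loss cells with IFNγ. Gadd45b (chromosome 10, 80930073 to 80932204, plus strand) had 60.7 and 56.6 CPM with sgRNA1 and 65.7 and 68.9 CPM with sgRNA2 under IFNγ, against 85.1 and 90.9 CPM in Rosa26 cells under IFNγ. In vehicle Gadd45b had 35.5 and 40.8 CPM with sgRNA1 and 50.5 and 46.6 CPM with sgRNA2, against 49.4 and 51.5 CPM in Rosa26 cells, so that sgRNA2 overlapped Rosa26 there. The changes for Cop1 loss were -0.49 ± 0.05 with IFNγ (adjusted p = 2.2e-10) and -0.24 ± 0.06 in vehicle (adjusted p = 0.000979), and both calls ended with summed populations (0.0732 and 0.383). IFNγ raised Gadd45b by 0.55 ± 0.05 in Cop1-loss cells and by 0.80 ± 0.06 in Rosa26 cells (adjusted p = 1.47e-13 and 1.82e-14).

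Gadd45g (chromosome 13, 51846678 to 51848468, plus strand) had IFNγ changes of opposite sign in Cop1-loss and Rosa26 cells. It had 6.52 and 6 CPM with sgRNA1 and 6.15 and 6.67 CPM with sgRNA2 under IFNγ, against 12 and 12 CPM in Rosa26 cells under IFNγ. In vehicle Gadd45g had 10.3 and 8.93 CPM with sgRNA1 and 8.89 and 9.02 CPM with sgRNA2, against 10.5 and 8.81 CPM in Rosa26 cells. The groups overlapped in vehicle and were far apart with IFNγ. Cop1 loss lowered Gadd45g, with a log2 change of -0.92 ± 0.12 with IFNγ (adjusted p = 3.07e-08), while the vehicle change was -0.06 ± 0.12 (adjusted p = 0.753). IFNγ lowered it, with a log2 change of -0.56 ± 0.10 in Cop1-loss cells (adjusted p = 2.89e-05), and in Rosa26 cells the change of 0.31 ± 0.13 did not pass (adjusted p = 0.0695).

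Gadd45a (chromosome 6, 67035096 to 67037457, minus strand), with a mean log2 CPM of 2.94 just under the level set for naming, is added because its decrease with IFNγ stood out once seen. It had 5.21 and 5.35 CPM with sgRNA1 and 6.15 and 6.04 CPM with sgRNA2 under IFNγ, against 15.1 and 12.7 CPM in Rosa26 cells under IFNγ. In vehicle Gadd45a had 5.03 and 6.25 CPM with sgRNA1 and 6.58 and 6.72 CPM with sgRNA2, against 11.6 and 11.1 CPM in Rosa26 cells. Cop1 loss lowered it, with a log2 change of -1.30 ± 0.12 with IFNγ and of -0.90 ± 0.12 in vehicle (adjusted p = 1.1e-11 and 1.36e-07), calls that held under all alternatives run (highest adjusted p 0.00171 and 0.0128). Its exons share 19.1% of their bases with the opposite-strand transcript E230016M11Rik, and the labels do not say whether counting used strand. Ccng1, cyclin G1, was the arrest gene with no call for Cop1 loss in either treatment, with log2 changes of 0.05 ± 0.06 with IFNγ and -0.01 ± 0.06 in vehicle, and its levels ran from 43.1 to 50.7 CPM over all libraries.

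**Figure D3:**
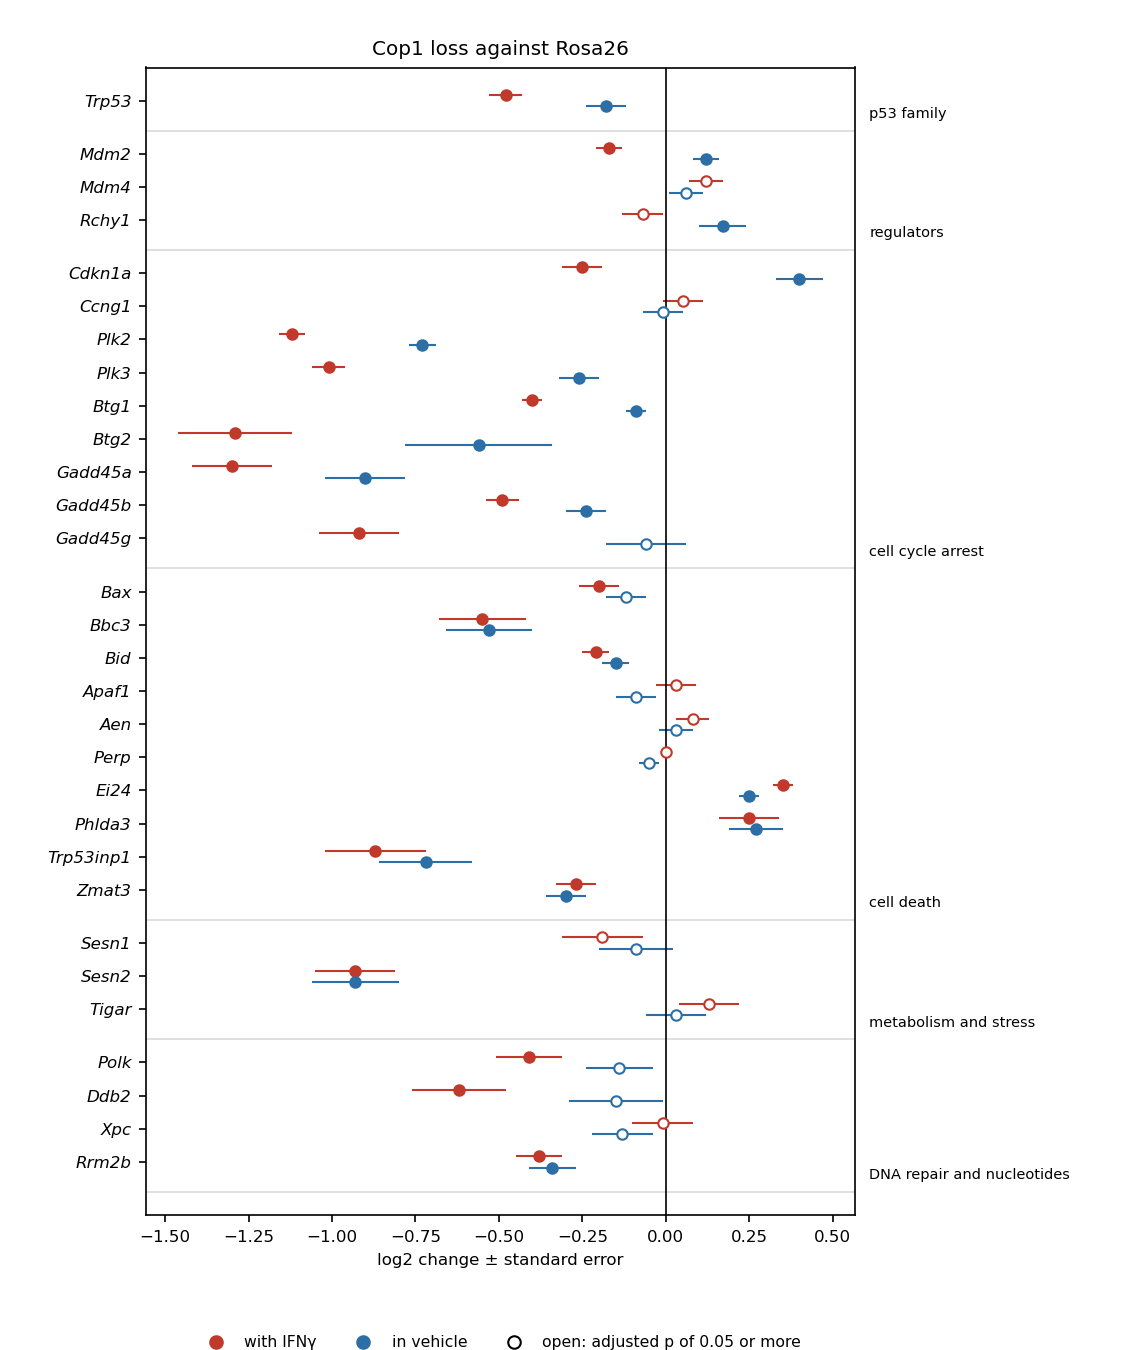
Log2 change of Cop1-loss cells against Rosa26 cells with IFNγ (red) and in vehicle (blue) for the 30 genes tested, by role, with standard errors; filled points passed an adjusted p under 0.05. With IFNγ most arrest genes lie left of their vehicle points, Gadd45a farthest at -1.30, while Cdkn1a and Mdm2 lie on opposite sides of 0.

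Of 10 cell death genes tested, Cop1 loss raised 2 and lowered 5 with IFNγ (20% and 50%, against 19.8% and 20.7% of all genes), and raised 2 and lowered 4 in vehicle (20% and 40%, against 16.6% and 19.2%). The shares raised lay near those of all genes, and without Rosa26 vehicle replicate 1 the counts in vehicle were 1 raised and 2 lowered. Ei24, an endoplasmic reticulum protein first described as a p53-induced gene, had 196 and 190 CPM with sgRNA1 and 199 and 200 CPM with sgRNA2 under IFNγ, against 154 and 154 CPM in Rosa26 cells under IFNγ. In vehicle Ei24 had 202 and 202 CPM with sgRNA1 and 214 and 212 CPM with sgRNA2, against 176 and 173 CPM in Rosa26 cells. Every Cop1-loss library exceeded both Rosa26 libraries of its treatment, and the increases of 0.35 ± 0.03 with IFNγ and 0.25 ± 0.03 in vehicle (adjusted p = 7.47e-13 and 4.92e-09) held under all alternatives run. Phlda3, a repressor of AKT, had 19.8 and 19.6 CPM with sgRNA1 and 17.3 and 16.6 CPM with sgRNA2 under IFNγ, against 15.4 and 15.3 CPM in Rosa26 cells, and 22.1 and 25.0 CPM with sgRNA1 and 19.7 and 20.2 CPM with sgRNA2 in vehicle, against 17.6 and 18.4 CPM. It was higher in Cop1-loss cells by 0.25 ± 0.09 with IFNγ (adjusted p = 0.0162) and by 0.27 ± 0.08 in vehicle (adjusted p = 0.00933). The first Phlda3 call was lost on leaving out Rosa26 IFNγ replicate 1 (0.081) or replicate 2 (0.0929), with summed populations (0.242) and by DESeq2 (0.0501). The second ended without Rosa26 vehicle replicate 1 (0.106) and with summed populations (0.251).

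Zmat3, an RNA-binding splicing regulator, fell by 0.27 ± 0.06 with IFNγ and by 0.30 ± 0.06 in vehicle (adjusted p = 0.000192 and 5.16e-05), with 40.9 and 43.2 CPM with sgRNA1 and 44.0 and 42.0 CPM with sgRNA2 under IFNγ, against 51.2 and 51.3 CPM in Rosa26 cells. In vehicle Zmat3 had 42.2 and 43.7 CPM with sgRNA1 and 39.1 and 45.0 CPM with sgRNA2, against 54.0 and 50.4 CPM in Rosa26 cells. Both decreases passed under all alternatives run. Bid, a BH3-only protein that links death receptors to mitochondria, was lower, with a log2 change of -0.21 ± 0.04 with IFNγ and of -0.15 ± 0.04 in vehicle. Its vehicle call ended without Rosa26 vehicle replicate 1 (adjusted p = 0.13), and both ended with summed populations (0.0826 and 0.239). Bax, the pore-forming effector, was lower in Cop1-loss cells with IFNγ by 0.20 ± 0.06, a call that ended with summed populations (adjusted p = 0.225). It was not called in vehicle. Means under IFNγ were 43 CPM with sgRNA1 and 37.8 CPM with sgRNA2, against 46.4 CPM in Rosa26 cells. In vehicle sgRNA1 was the lower guide, with 40.5 CPM, against 45.2 CPM with sgRNA2 and 46.6 CPM in Rosa26 cells. Bax shares 12.2% of its exonic bases with Gm45808 on the same strand.

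Bbc3, the BH3-only protein PUMA, and Trp53inp1, a stress-induced p53 cofactor, lie under the level set for naming (mean log2 CPM 2.91 and 2.65) and are given because both were lower in both treatments. Bbc3 had 6.04 and 6.48 CPM with sgRNA1 and 5.97 and 5.67 CPM with sgRNA2 under IFNγ, against 8.15 and 9.58 CPM in Rosa26 cells, and 7.15 and 7.10 CPM with sgRNA1 and 7.35 and 6.98 CPM with sgRNA2 in vehicle, against 11.3 and 9.39 CPM. It changed by -0.55 ± 0.13 with IFNγ and by -0.53 ± 0.13 in vehicle. Those calls ended without Rosa26 IFNγ replicate 2 (adjusted p = 0.0507) and without Rosa26 vehicle replicate 1 (0.0731). Trp53inp1 had 4.50 and 5.39 CPM with sgRNA1 and 3.75 and 5.04 CPM with sgRNA2 under IFNγ, against 8.83 and 8.09 CPM in Rosa26 cells, and 5.46 and 5.40 CPM with sgRNA1 and 6.10 and 6.03 CPM with sgRNA2 in vehicle, against 9.85 and 8.99 CPM. It changed by -0.87 ± 0.15 with IFNγ and by -0.72 ± 0.14 in vehicle (adjusted p = 4.69e-06 and 5.65e-05). Apaf1, the apoptosome scaffold, Aen, an apoptosis-linked nuclease, and Perp, a desmosomal membrane protein, had no call for Cop1 loss in either treatment, with log2 changes from -0.09 to 0.08.

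IFNγ raised Bid most among the cell death genes, by 0.59 ± 0.04 in Cop1-loss cells and by 0.65 ± 0.05 in Rosa26 cells (adjusted p = 6.88e-18 and 1.63e-14). Bid had 100 and 106 CPM with sgRNA1, 109 and 103 CPM with sgRNA2 and 123 and 119 CPM in Rosa26 cells under IFNγ, against 68.3 and 65.2 CPM, 70.2 and 74.4 CPM, and 78.7 and 75.6 CPM in the same cells in vehicle. Bid shares 17.7% of its exonic bases with Bcl2l13 on the opposite strand. Aen had 53.1 to 59.4 CPM with the Cop1 guides and 53.6 and 53.5 CPM in Rosa26 cells under IFNγ, against 45.2 to 46.9 CPM and 45.2 and 45.0 CPM in vehicle. It rose by 0.30 ± 0.04 in Cop1-loss cells and by 0.25 ± 0.06 in Rosa26 cells, where the call ended with summed populations (adjusted p = 0.157). Perp fell by 0.29 ± 0.03 and 0.33 ± 0.04 in the same cells, with 114 to 124 CPM in the libraries with IFNγ, against 144 to 153 CPM in those in vehicle. Ei24 fell slightly with IFNγ, by 0.08 ± 0.02 in Cop1-loss cells and by 0.18 ± 0.03 in Rosa26 cells. The first Ei24 call ended without sgRNA1 IFNγ replicate 2 (adjusted p = 0.0531), and both ended with summed populations (0.397 and 0.173). Phlda3 fell by 0.24 ± 0.07 in Cop1-loss cells, a call that ended with summed populations (0.218). Its change in Rosa26 cells had the same sign without a call, with means of 15.3 CPM under IFNγ and 18 CPM in vehicle. The 2 Phlda3 responses were not called different. Apaf1 rose by 0.13 ± 0.05 in Cop1-loss cells, which passed in 9 of 15 alternatives. It did not on leaving out replicate 2 of sgRNA1 in vehicle (adjusted p = 0.101), of sgRNA2 in vehicle (0.0937) or of sgRNA1 with IFNγ (0.125), or sgRNA2 IFNγ replicate 1 (0.189), with summed populations (0.247) or by DESeq2 (0.0844).

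Among the stress metabolism genes, Sesn2 stood apart. Sestrins restrain mTORC1 when amino acids or energy are short. Sesn2 (chromosome 4, 132492032 to 132510501, minus strand) had 7.11 and 6.31 CPM with sgRNA1 and 10.4 and 8.19 CPM with sgRNA2 under IFNγ, against 15.4 and 14.9 CPM in Rosa26 cells under IFNγ. In vehicle Sesn2 had 5.86 and 5.17 CPM with sgRNA1 and 6.06 and 4.68 CPM with sgRNA2, against 11.1 and 9.75 CPM in Rosa26 cells. Cop1 loss lowered it, with a log2 change of -0.93 ± 0.12 with IFNγ and of -0.93 ± 0.13 in vehicle (adjusted p = 2.32e-08 and 1.95e-07), calls that held under all alternatives run. IFNγ raised it by 0.54 ± 0.11 in Cop1-loss cells and by 0.54 ± 0.14 in Rosa26 cells, and both of these ended with summed populations (adjusted p = 0.0562 and 0.159). Sesn1 and Tigar, a fructose bisphosphatase that slows glycolysis, had no call for Cop1 loss. With IFNγ Sesn1 fell by 0.31 ± 0.09 in Cop1-loss cells, with 8.59 to 9.24 CPM under IFNγ, against 10.5 to 12 CPM in vehicle. This call ended without sgRNA2 vehicle replicate 2 (adjusted p = 0.056) and with summed populations (0.0924). Tigar rose by 0.24 ± 0.07 in Cop1-loss cells, which did not pass without sgRNA1 IFNγ replicate 1 (adjusted p = 0.186) or with summed populations (0.125). In Rosa26 cells both changed with the same sign without a call. Means there were 10.2 CPM under IFNγ and 11.8 CPM in vehicle for Sesn1, and 19.6 and 17.9 CPM for Tigar. Neither gene was called for a difference between the responses.

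Of 4 DNA repair and nucleotide supply genes, Cop1 loss lowered 3 with IFNγ and 1 in vehicle, against 20.7% and 19.2% of all genes. Rrm2b, the p53-inducible ribonucleotide reductase subunit, had 27.2 and 25.0 CPM with sgRNA1 and 24.4 and 25.8 CPM with sgRNA2 under IFNγ, against 33.6 and 33.2 CPM in Rosa26 cells under IFNγ. In vehicle Rrm2b had 27.2 and 27.3 CPM with sgRNA1 and 24.0 and 24.1 CPM with sgRNA2, against 34.7 and 29.9 CPM in Rosa26 cells. It fell by 0.38 ± 0.07 with IFNγ and by 0.34 ± 0.07 in vehicle (adjusted p = 1.68e-05 and 0.000132). The vehicle change was -0.22 without Rosa26 vehicle replicate 1 (adjusted p = 0.055) and did not pass with summed populations (0.0736). Polk, a translesion polymerase, fell by 0.41 ± 0.10 with IFNγ and had no call in vehicle. Ddb2, which recognises UV damage, fell by 0.62 ± 0.14 with IFNγ, a call that ended with summed populations (adjusted p = 0.0517), at a mean log2 CPM of 2.73 and with 23.8% of its exonic bases shared with Acp2 on the opposite strand. IFNγ raised Ddb2 by 0.42 ± 0.16 in Rosa26 cells (adjusted p = 0.0372). This no longer passed on leaving out any 1 of the 4 Rosa26 libraries (adjusted p = 0.0862 to 0.16), with summed populations (0.247) and by DESeq2 (0.112). Xpc, another damage sensor, was not called in any of the comparisons of Cop1 loss or IFNγ.

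The response to IFNγ differed between Cop1-loss and Rosa26 cells in 8 of the 30 genes, all with a more negative change in Cop1-loss cells, and none had a more positive one, where 2.36% and 3.38% of all genes were called in these directions. At an unadjusted p under 0.05, 1 member lay in the positive direction by edgeR and by DESeq2. The difference, the response of Cop1-loss cells minus that of Rosa26 cells, was -0.87 ± 0.17 for Gadd45g (adjusted p = 0.000589), -0.74 ± 0.08 for Plk3 (2.3e-09), -0.65 ± 0.10 for Cdkn1a (6.38e-06) and -0.39 ± 0.05 for Plk2 (1.17e-06). It was -0.31 ± 0.04 for Btg1 (adjusted p = 1.22e-07), -0.30 ± 0.08 for Trp53 (0.0161), -0.29 ± 0.06 for Mdm2 (0.000392) and -0.25 ± 0.08 for Gadd45b (0.0408). Of the 8, 6 are arrest genes, 1 is Trp53 and 1 is its regulator Mdm2. No cell death gene of 10 was called by edgeR or DESeq2, and 1 had an unadjusted p under 0.05. With 5.74% of all genes called in either direction, 0 of 10 lies near the share of all genes. Btg2, with -0.74 ± 0.28, and Gadd45a, with -0.40 ± 0.18, did not pass (adjusted p = 0.119 and 0.204), and Sesn2 had a difference of 0.00.

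With summed populations, where the spread comes from the 2 guides alone, edgeR called none of the 11904 genes for this difference, and 8 members had an unadjusted p under 0.05, so all 8 calls ended there. DESeq2 called 6 of the 30. The difference for Trp53 also did not pass on leaving out Rosa26 vehicle replicate 1 (adjusted p = 0.0512) or replicate 2 (0.0927), without sgRNA1 vehicle replicate 1 (0.0764) and without Rosa26 IFNγ replicate 2 (0.0839). The call for Gadd45b ended under 10 of 18 alternatives, with adjusted p-values from 0.0501 to 0.219 on leaving out either Rosa26 vehicle library, either Rosa26 IFNγ library, sgRNA1 replicate 2 in vehicle or with IFNγ, or sgRNA2 replicate 1 in vehicle or with IFNγ, of 0.0982 by DESeq2 and of 0.998 with summed populations. DESeq2 gave Gadd45g no adjusted p.

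**Figure D4:**
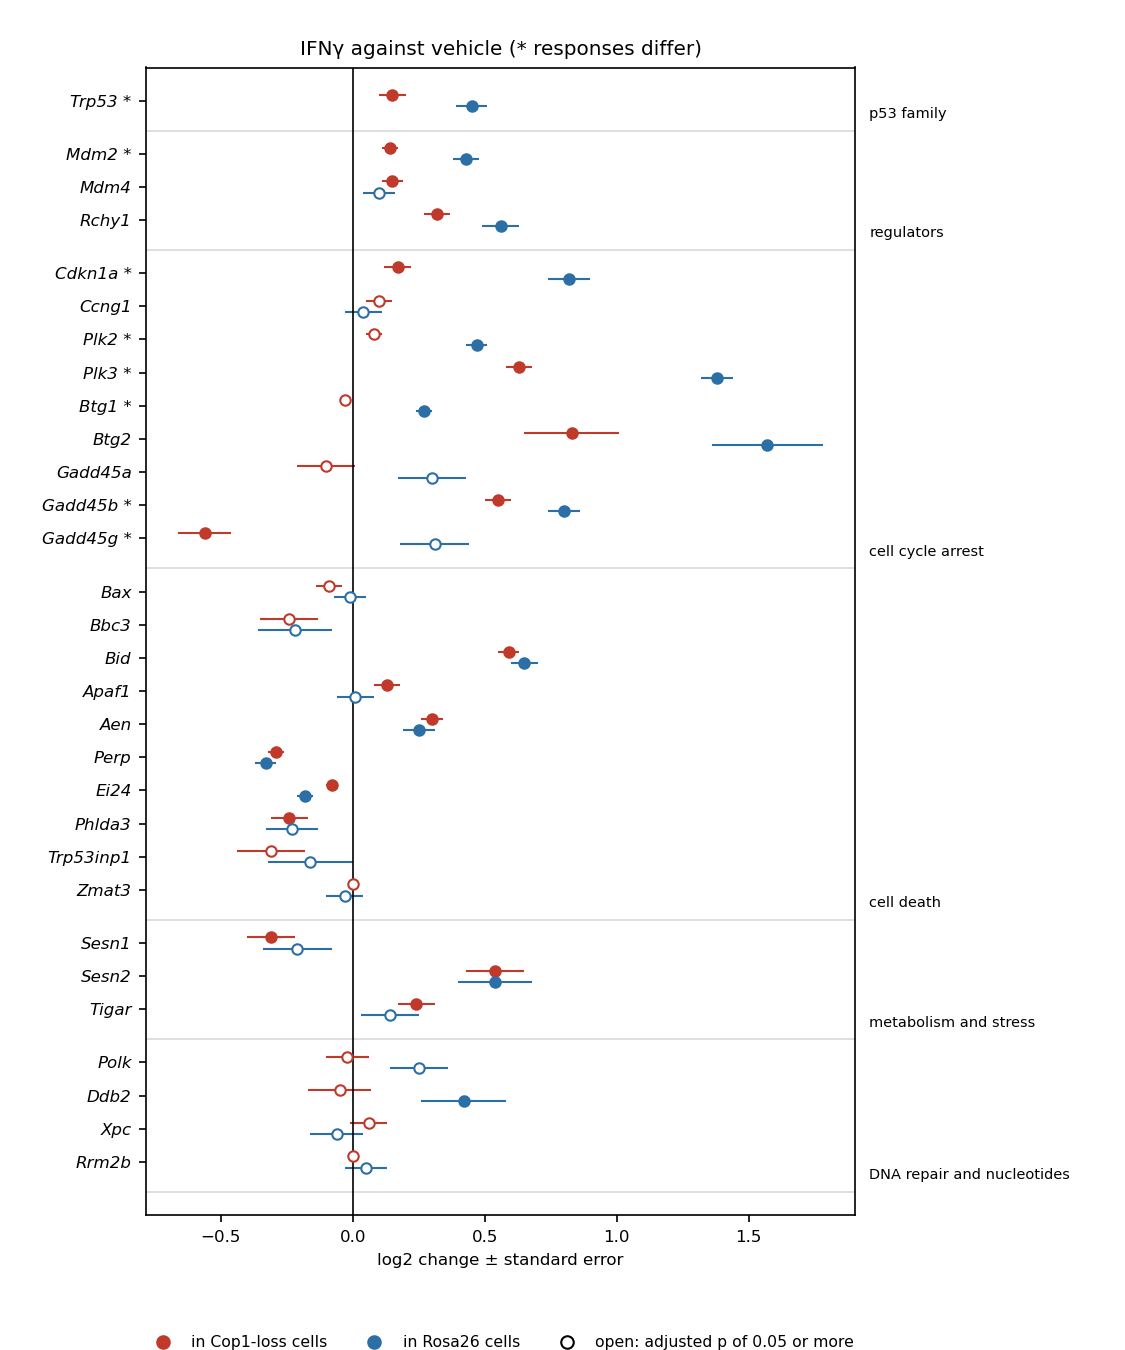
Log2 change with IFNγ against vehicle in Cop1-loss cells (red) and Rosa26 cells (blue) for the 30 genes tested, by role, with standard errors, drawn where the change was not 0.00; filled points passed an adjusted p under 0.05 and a star marks genes whose responses differed at that threshold. The starred genes number 8, and in each the red point lies left of the blue one.

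Immediate early genes answer growth factor and stress signals within minutes to hours and share inducers with Btg2, Gadd45b, Plk2 and Plk3. Their transcripts were mostly lower in Cop1-loss cells with IFNγ and went both ways in vehicle. Of 13 tested, Cop1 loss raised 0 and lowered 10 with IFNγ (1 was higher at an unadjusted p under 0.05 by edgeR, and DESeq2 also called 0 higher and 10 lower), and raised 5 and lowered 4 in vehicle. These shares were 0% and 76.9% with IFNγ, against 19.8% and 20.7% of all genes, and 38.5% and 30.8% in vehicle, against 16.6% and 19.2%. IFNγ raised 9 and lowered 1 in Cop1-loss cells (69.2% and 7.69%, against 18.1% and 16.1% of all genes). In Rosa26 cells it raised 12 (92.3%, against 16.6% of all genes). The IFNγ response was called more negative in Cop1-loss cells for 10 of the 13 (76.9%, against 2.36% of all genes), and for 9 by DESeq2. The summed level of the 14 listed genes was 1550 to 1584 CPM in Cop1-loss cells and 2311 to 2316 CPM in Rosa26 cells with IFNγ, and 1337 to 1353 CPM and 1334 to 1384 CPM in vehicle. Junb fell by 0.97 ± 0.03 and Atf3 by 1.71 ± 0.05 in Cop1-loss cells with IFNγ, and Egr1 by 1.51 ± 0.06. In vehicle Atf3 fell by 1.17 ± 0.07 and Junb by 0.46 ± 0.03, while Jun rose by 0.34 ± 0.04, with every Cop1-loss library above both Rosa26 libraries. The part of this group's signal in the results for Btg2, Gadd45b, Gadd45g, Plk2 and Plk3 was not tested. Without these 5 genes, 2 of 25 members were called higher and 14 lower for Cop1 loss with IFNγ. These are 8% and 56%, against 19.8% and 20.7% of all genes. In vehicle 5 were called higher and 9 lower, or 20% and 36%, against 16.6% and 19.2%. The share called higher in vehicle lay near that of all genes. For the difference of IFNγ responses, 4 of the 25 were called more negative in Cop1-loss cells (16%), against 8 of the 30 (26.7%) and 2.36% of all genes.

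Of 34 other p53 targets tested, not among the 36, Cop1 loss raised 4 and lowered 11 with IFNγ (11.8% and 32.4%, against 19.8% and 20.7% of all genes), with a median log2 change of -0.11. In vehicle it raised 8 and lowered 9 (23.5% and 26.5%, against 16.6% and 19.2%), shares somewhat above those of all genes, with a median of -0.02. The IFNγ response was called more positive in Cop1-loss cells for 1 of the 34 and more negative for 2. These are 2.94% and 5.88%, against 3.38% and 2.36% of all genes. Tgfa, an EGF receptor ligand, rose by 0.64 ± 0.04 with IFNγ and 0.55 ± 0.04 in vehicle, and Cd82, a tetraspanin that restrains metastasis, by 0.49 ± 0.05 and 0.62 ± 0.05. Abhd4, a lipase of N-acyl phospholipids, fell by 0.59 ± 0.08 and 0.61 ± 0.07. Of 26 p53 regulators tested, 7 rose and 10 fell with IFNγ (26.9% and 38.5%, against 19.8% and 20.7% of all genes), and 3 rose and 10 fell in vehicle (11.5% and 38.5%, against 16.6% and 19.2%). The ribosomal proteins Rpl11 and Rpl5, which can bind MDM2, rose by 0.34 ± 0.03 and 0.15 ± 0.02 with IFNγ and by 0.23 ± 0.03 and 0.14 ± 0.02 in vehicle. Trim28, an MDM2 cofactor, rose by 0.30 ± 0.03 with IFNγ, and the damage kinase Atm fell by 0.37 ± 0.06 in vehicle.

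Of 7 other CDK inhibitor and retinoblastoma family genes tested, edgeR and DESeq2 called 0 higher and 2 lower with IFNγ (1 was higher at an unadjusted p under 0.05 by edgeR). In vehicle both called 1 higher, and edgeR called 2 lower where DESeq2 called 1. The share called lower by edgeR was 28.6% in each treatment, against 20.7% of all genes with IFNγ and 19.2% in vehicle. Rb1, the retinoblastoma gene, fell by 0.47 ± 0.12 with IFNγ and by 0.42 ± 0.11 in vehicle, Cdkn2aip by 0.22 ± 0.07 with IFNγ and Rbl2 by 0.24 ± 0.09 in vehicle, where its libraries overlapped between the groups (adjusted p = 0.0292), while Cdkn1b, which encodes p27, rose by 0.16 ± 0.04 in vehicle. Of 10 other BCL2 family genes tested, 1 rose and 2 fell with IFNγ (10% and 20%), and 2 rose and 2 fell in vehicle (20% and 20%). The shares of all genes were 19.8% and 20.7% with IFNγ and 16.6% and 19.2% in vehicle. The share raised with IFNγ lay below that of all genes, and the others lay near it. Bok rose by 0.46 ± 0.05 with IFNγ and by 0.41 ± 0.04 in vehicle. The survival gene Bcl2l1 fell by 0.17 ± 0.04 and Bcl2l11, which encodes BIM, by 0.13 ± 0.05 with IFNγ, and in vehicle Bak1 fell by 0.25 ± 0.04 and Mcl1 rose by 0.11 ± 0.03.

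Each guide was also compared with Rosa26 on its own, and both of these comparisons use the same Rosa26 libraries. With IFNγ, 20 of the 30 genes were called with sgRNA1 and 22 with sgRNA2, against 38.2% and 32.9% of all genes. In vehicle 18 were called with sgRNA1 and 10 with sgRNA2, against 33.4% and 29.2% of all genes. Plk2 changed by -1.21 ± 0.04 with sgRNA1 and -1.04 ± 0.04 with sgRNA2 under IFNγ, and by -0.86 ± 0.04 and -0.61 ± 0.04 in vehicle. Cdkn1a changed by -0.28 ± 0.07 and -0.23 ± 0.08 under IFNγ and by 0.42 ± 0.08 and 0.37 ± 0.08 in vehicle with the same guides. Trp53 changed by -0.54 ± 0.06 and -0.42 ± 0.06 under IFNγ, and in vehicle by -0.23 ± 0.07 with sgRNA1 and by -0.13 ± 0.07 with sgRNA2, which was not called (adjusted p = 0.154).

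Tested directly, sgRNA2 differed from sgRNA1 in 5 of the 30 genes with IFNγ and in 2 in vehicle, against 9.41% and 5.99% of all genes. These are 16.7% and 6.67% of the 30, and the second is near the share of all genes. All of the genes called were higher with sgRNA2, the guide with less Cop1 mRNA. With IFNγ they were Sesn2 (0.48 ± 0.15), Mdm4 (0.20 ± 0.06), Gadd45b (0.20 ± 0.06), Plk2 (0.17 ± 0.05) and Btg1 (0.11 ± 0.03), and in vehicle Gadd45b (0.36 ± 0.07) and Plk2 (0.25 ± 0.05). With IFNγ, Sesn2, Gadd45b, Plk2 and Btg1 thus lay nearer to Rosa26 with sgRNA2 than with sgRNA1, and Mdm4 lay farther from it. Plk2 means were 97.4 CPM with sgRNA2 and 86.8 CPM with sgRNA1, against 200 CPM in Rosa26 cells. Leaving out single libraries ended calls with IFNγ. By edgeR 0 members were called without sgRNA1 IFNγ replicate 1 or replicate 2, where 7 and 4 had an unadjusted p under 0.05, and 2 were called without sgRNA2 IFNγ replicate 1 or replicate 2, while DESeq2 called 3 with all libraries. In vehicle 1 was called without sgRNA1 vehicle replicate 1.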

How the data were processed

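The authors deposited raw counts of reads per gene, whole numbers without normalization, for 12 libraries in 1 table. Per the labels' protocols the kit was Illumina TruSeq RNA, and per the submitters' processing notes the tools were STAR 2.4.0, HTSeq and DESeq2 1.10 with build mm10. The strand setting and the annotation for counting were not given in the sources used here. A row of totals was left out, as were 26 date-like gene names from naming.

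Genes were tested with edgeR 4.0.16 in R 4.3.3 (quasi-likelihood F test, robust, TMM, 1 mean for each of the 6 groups). After filterByExpr (at least 10 counts, total of at least 15) 11904 genes remained, over which Benjamini-Hochberg adjustment ran and an adjusted p under 0.05 was a call. Cop1 loss averages both guides. Alternatives were RLE size factors, other filters, a replicate block, each library left out, the groups compared alone, the libraries of each population summed, and DESeq2 1.42.0. The code was tested on simulated counts. The variation between replicates beyond counting was 3.21%, so small changes are called, and replicate libraries differed by more than counting noise (chi-square per degree of freedom 2.33 to 4.21).

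The members and lists were chosen with earlier results of these data known. Values per library are given for Trp53, Mdm2, Cdkn1a and, in each comparison, up to 6 called members in each direction with the largest change, if they average a log2 CPM of 3 or more and both guides give the same sign. Others singled out were chosen after their values were seen. Of other lists, the 3 called genes with the smallest p are named. Promoters are from RefSeq (GRCm38.p6) and gene positions and exon overlaps from GENCODE on GRCm38.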

Additional observations from a re-analysis of the deposited data

Results flagged for a closer look

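The IFNγ response differed between Cop1-loss and Rosa26 cells, by the interaction term of the edgeR model, in 8 genes of the network. The difference (log2, response of Cop1-loss cells minus that of Rosa26 cells) was -0.87 for Gadd45g, -0.74 for Plk3, -0.65 for Cdkn1a, -0.39 for Plk2, -0.31 for Btg1, -0.30 for Trp53, -0.29 for Mdm2 and -0.25 for Gadd45b. For Plk3, Cdkn1a, Trp53, Mdm2 and Gadd45b both cells responded upwards and Cop1-loss cells by less. For Plk2 and Btg1 the response was called in Rosa26 cells and not in Cop1-loss cells. For Gadd45g it was called as a decrease in Cop1-loss cells and was not called in Rosa26 cells.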

How the results depend on the processing

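Over 150 results of single members, 2100 values were recomputed: 1989 kept their side of the threshold, 99 lost a call, 12 gained one and 0 changed sign with a call. Among the 1989, 64 had no call under either setting and changed sign. With summed populations the members called for Cop1 loss in vehicle numbered 8 (18 in the main analysis), for Cop1 loss with IFNγ 14 (21), for IFNγ in Cop1-loss cells 8 (18), for IFNγ in Rosa26 cells 10 (15) and for the interaction 0 (8). That fit has fewer columns, and was not run for single guides. The 8 called for Cop1 loss in vehicle were Cdkn1a, Plk2, Gadd45a, Bbc3, Ei24, Trp53inp1, Zmat3 and Sesn2.

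With 1 library left out, the counts ranged from 8 to 17 for Cop1 loss in vehicle (8 without Rosa26 vehicle replicate 1), from 0 to 2 for sgRNA2 against sgRNA1 with IFNγ (5 with all libraries, 3 by DESeq2) and from 1 to 2 for the same in vehicle. The cause of these shifts was not tested. RLE size factors and the other filters left each count of members within 1.5 times.

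Replicate numbers do not pair the samples: replicate 1 deviations of 15 pairs of groups correlated at -0.046 to 0.073. With the replicate block the counts were 18, 21, 18, 15 and 8 in the main comparisons, as without it. With 2 libraries a group, members with few counts, such as Btg2 with 38 to 232 per library, have wide errors.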
